A study of Homo sapiens with 3 samples.

Results

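The 10 p53 target genes described here were CDKN1A, BTG2, GADD45A, MDM2, FAS, TP53INP1, TP53I3, ZMAT3, SESN1 and RRM2B. They were taken by symbol, each matched 1 of the 58037 genes in the count table, and all 10 passed the filter on low counts (a mean of 20 normalised counts over the libraries), which left 14413 genes to compare. The libraries came from A375, a human melanoma cell line. The control cells stayed in DMEM without serum, and the others received the same kind of medium after it had been conditioned by young (YA-A375) or old (OA-A375) adipocytes, called secretome, with 1 library per group. Exposure is given as 24 h for the sequenced cells, while the general protocol allows up to 48 h. The adipocytes had been differentiated from donor preadipocytes with insulin, dexamethasone, indomethacin and IBMX, and the number of donors behind each secretome is not given in the sources used here. The control medium had not been on adipocytes, so the effect of conditioning and the effect of adipocyte age cannot be told apart in either comparison with control.

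p53 is a transcription factor that is kept low by the ubiquitin ligase MDM2 and accumulates after DNA damage, oncogene activity or loss of nutrients. Its targets stop the cell cycle, supply nucleotides for repair, lower oxidative stress or start apoptosis, and MDM2 is itself a target, which closes a negative feedback loop. Several of these targets also answer to inputs other than p53, including growth factor, stress kinase, FOXO and inflammatory signals, so a target's mRNA level is not a reading of p53 protein, which was not measured in these libraries.

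With 1 library per group no difference has a replicate check and no p-value is given. A gene is called higher or lower when its normalised counts differ by at least 1.2-fold, a cutoff chosen here for both directions. It follows the study's methods only in part, since these name that number without a unit, for picking upregulated genes for pathway analysis. Each fold change carries a 95% counting interval, which covers the error of counting reads and nothing else. In YA-A375, 0 of the 10 genes were called higher and 0 lower than in control, where 17.4% of all tested genes were called higher and 16.4% lower. In OA-A375, 4 were called higher, namely CDKN1A, GADD45A, BTG2 and FAS, where 21.1% of all tested genes were. Another 2, TP53INP1 and ZMAT3, were called lower, where 21.5% of all tested genes were. MDM2, TP53I3, SESN1 and RRM2B stayed within 1.2-fold of control in both secretomes.

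A stricter reading asks that the whole counting interval lie beyond 1.2-fold. For YA-A375 this held for 0 of the 10 genes in either direction, where 6.03% of all tested genes met it upwards and 4.44% downwards. In OA-A375 it held for 3 higher genes, CDKN1A, GADD45A and FAS, and for both lower genes, against 9.04% and 9.08% of all tested genes. The members' median log2 fold change was 0.07 in YA-A375 and -0.02 in OA-A375, beside medians over all tested genes of -0.02 and 0.01. At 1.5-fold, CDKN1A and FAS were higher and TP53INP1 lower in OA, where 7.56% of all tested genes were higher and 8.81% lower, and 0 of the 10 passed in YA, where 6.25% and 4.52% did. At 2-fold 0 passed in either, where 2.86% and 3.71% of all tested genes did in OA and 2.15% and 0.971% in YA. The OA median near 0 thus held genes on both sides, from -0.77 to 0.71, while the YA values ran from -0.26 to 0.24.

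**Figure D1:**
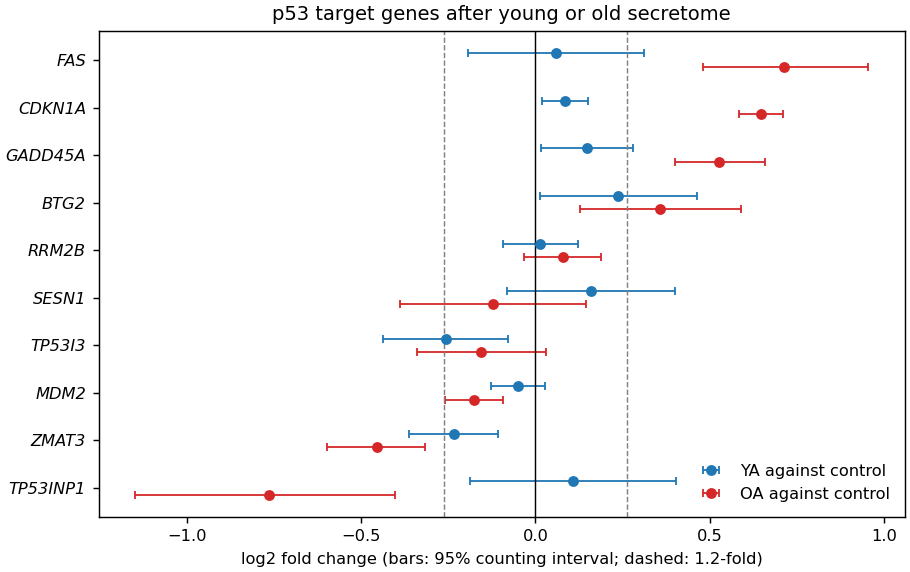
log2 fold change of each p53 target gene (x axis) in YA-A375 (blue) and OA-A375 (red) against control, with 95% counting intervals as bars and 1.2-fold as dashed lines. All 10 blue points lie between the dashed lines, while FAS, CDKN1A, GADD45A and BTG2 lie to the right of them in OA and ZMAT3 and TP53INP1 to the left.

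The genes of cell cycle arrest came first in this pattern. CDKN1A (ENSG00000124762.13; GRCh38 chromosome 6, 36676460 to 36687339) encodes p21, the inhibitor of cyclin-dependent kinases through which p53 halts the cycle. The control library held 3591 of its reads, the YA library 3798 and the OA library 4720, or 3384, 3589.5 and 5298 normalised counts. OA thus stood well above the other libraries, which lay close together. Its fold change in OA was 1.57 (counting interval 1.499 to 1.64) and in YA 1.06 (1.01 to 1.11).

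GADD45A (ENSG00000116717.11; chromosome 1, 67685061 to 67688338), a stress sensor that binds CDK1 and PCNA and activates the kinase MAP3K4, stood at 844, 936 and 1218 normalised counts in control, YA and OA. The order was that of CDKN1A, with a fold change of 1.44 in OA (1.32 to 1.58) and 1.11 in YA (1.01 to 1.21). BTG2 (ENSG00000159388.5; chromosome 1, 203305491 to 203309602), an antiproliferative protein that recruits the CCR4-NOT deadenylase to mRNAs, had 284, 335 and 364 normalised counts in the same order. Its fold change was 1.28 in OA (1.09 to 1.51) and 1.18 in YA (1.01 to 1.38). BTG2 was therefore the gene among the 10 with the largest value in YA, but its intervals in both secretomes reached under 1.2-fold.

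Among the genes of apoptosis the 3 members went different ways in OA. FAS (ENSG00000026103.20; chromosome 10, 88990582 to 89015785), the death receptor for FAS ligand, stood at 241 normalised counts in control and 251 in YA against 396 in OA, the largest increase among the 10 genes. Its fold change was 1.64 in OA (1.39 to 1.94) and 1.04 in YA (0.875 to 1.24). Of all tested genes, 94.7% had a lower fold change than FAS in OA. TP53INP1 (ENSG00000164938.13; chromosome 8, 94925972 to 94949411), a stress protein that links p53 to the kinase HIPK2 and takes part in autophagy, moved the other way. Its reads numbered 187 in control and 201 in YA but 92 in OA, or 176, 190.0 and 103 normalised counts, so that OA alone was low. Its fold change was 0.586 in OA (0.452 to 0.756) and 1.08 in YA (0.879 to 1.32).

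The third, TP53I3 (ENSG00000115129.13; chromosome 2, 24077433 to 24085861), a quinone oxidoreductase that raises oxidative stress downstream of p53, was highest in control. Its normalised counts were 529, 442 and 475 in control, YA and OA, with fold changes of 0.837 in YA (0.739 to 0.948) and 0.898 in OA (0.790 to 1.02). This was the lowest YA value among the 10 and lay just inside the 1.2-fold cutoff. ZMAT3 (ENSG00000172667.10; chromosome 3, 179017223 to 179072279), a zinc finger protein that binds RNA and controls splicing and mRNA stability, was lower in both secretomes. Normalised counts went from 1029.9 in control to 876 in YA and 751 in OA. Relative to control this was 0.729-fold in OA (0.661 to 0.804) and 0.851 in YA (0.779 to 0.929).

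SESN1 (ENSG00000080546.13; chromosome 6, 108986437 to 109094819) encodes a sestrin, which restrains mTORC1 and protects against peroxides. Normalised counts of 256, 286 and 236 in control, YA and OA put control between the secretomes, and both counting intervals against control held a fold change of 1 (0.945 to 1.32 in YA and 0.764 to 1.11 in OA). RRM2B (ENSG00000048392.11; chromosome 8, 102204502 to 102239118), the p53-inducible subunit of ribonucleotide reductase, had the steadiest level of the 10, with 1339.9, 1353 and 1415.5 normalised counts. Its fold change was 1.01 in YA (0.938 to 1.09) and 1.06 in OA (0.978 to 1.14).

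MDM2 (ENSG00000135679.22; chromosome 12, 68808176 to 68850686), the feedback inhibitor, was not higher in either secretome. Reads numbered 2757, 2657 and 2048 in control, YA and OA, or 2598, 2511 and 2299 normalised counts. Its fold change was 0.967 in YA (0.916 to 1.02) and 0.885 in OA (0.835 to 0.937). MDM2 and CDKN1A thus had values on opposite sides of control in OA, at -0.18 and 0.65 on the log2 scale.

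The sequences p53 is known to bind were looked for in RefSeq promoter windows on GRCh38.p14, which run from 250 bases before to 50 after each annotated start. Windows of 7 of the members, 15 in all, were searched, while GADD45A, TP53INP1 and RRM2B were not searched. Whether promoter windows of these genes hold a match was therefore not tested. The p53 consensus half-site was searched as a pair without a spacer, over 20 bases, and since it reads the same on both strands 1 pass covers both. A pair with at most 2 mismatches stood in windows of MDM2 and FAS, a match held by 0.820% of the 27305 genes with windows. These shares count a gene once and take no account of how many windows it has. At 3 mismatches, a match as good as which 6.39% of genes had, SESN1 was added. In the other windows of MDM2, FAS and SESN1 the best stretches had 5 mismatches. Only the best stretch of each window was kept, so further matches within a window, including that of MDM2 printed below, are not marked. The best stretches of MDM2, FAS and SESN1 are shown because the feedback gene and the most increased gene both have a match. All lie within the annotated span of their gene. Capitals mark the bases that fit the consensus.

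MDM2, plus strand, chr12:68808923-68808942: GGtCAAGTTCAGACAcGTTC
FAS, plus strand, chr10:88991309-88991328: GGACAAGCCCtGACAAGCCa
SESN1, minus strand, chr6:109009018-109009037: GGACAAGTCTccACAAGTCa

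The best stretches in the windows of BTG2 and ZMAT3 had 4 mismatches, or fewer in 29.9% of genes, and those of CDKN1A and TP53I3 had 5, or fewer in 74.8% of genes. That says only that the letters are not in these windows, and elements further away were not searched. The MDM2 stretch began 94 bases before the start of the inner of its promoters. Its 235 bases of surrounding sequence, up to the nearest annotated exon (chr12:68808767-68809001, plus strand, the 20-base stretch in capitals), are printed because MDM2 did not follow CDKN1A and FAS in OA while holding one of the better matches.

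MDM2 promoter: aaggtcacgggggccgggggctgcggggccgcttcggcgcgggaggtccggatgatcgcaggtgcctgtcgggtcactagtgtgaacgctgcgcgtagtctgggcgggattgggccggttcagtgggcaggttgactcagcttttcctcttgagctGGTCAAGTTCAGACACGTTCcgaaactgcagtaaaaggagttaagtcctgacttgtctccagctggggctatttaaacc

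FAS, with a match at 2 mismatches, was 1.64-fold of control in OA and MDM2, with an equal number, 0.885-fold. SESN1, with 3 mismatches, was 0.920-fold (0.764 to 1.11). Among the searched members, FAS alone of the 3 that hold the better matches was called higher in OA, while MDM2 and SESN1 were not called. The part of these matches in the fold changes was not tested.

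Compared per length of exon, CDKN1A had the highest level of the 10 in every library, with 1109 normalised counts per kb in control, 1177 in YA and 1737 in OA. GADD45A followed with 408, 452 and 589 per kb. RRM2B (242 per kb) and TP53I3 (229) had overlapping counting intervals in control, as had TP53I3 and MDM2 only in YA (191 and 189). ZMAT3 and BTG2 (107 and 103 per kb in control) also overlapped there, but in OA BTG2 stood at 132 and ZMAT3 at 77.9, with intervals apart, while those of ZMAT3 and FAS (93.2) overlapped. FAS and SESN1 overlapped in control (56.7 and 50.05) and in YA (59.1 and 55.9) but not in OA, where SESN1 was at 46.03. TP53INP1 was lowest in every library, at 31.0, 33.5 and 18.2 per kb.

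**Figure D2:**
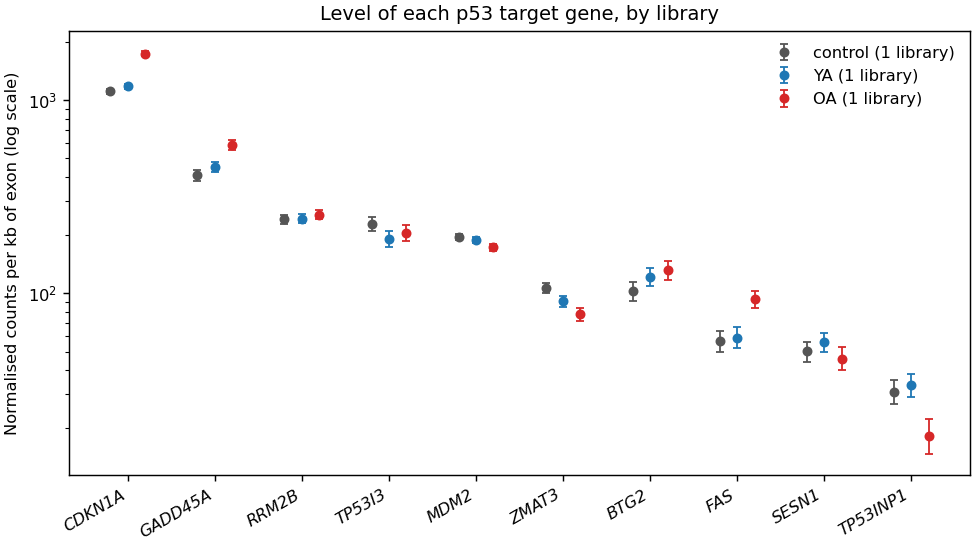
Normalised counts per kb of merged exon (y axis, log scale) of each p53 target gene in control (grey), YA (blue) and OA (red), 1 library each, with 95% counting intervals. CDKN1A tops every library, from 1109 per kb in control to 1737 in OA, and TP53INP1 is lowest, at 18.2 in OA.

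Set directly against each other, 2 members were called higher in YA than in OA, where 23.0% of all tested genes were, and 3 were called lower, where 21.5% were. TP53INP1 was 1.84-fold of its OA level in YA (1.43 to 2.38) and SESN1 1.21-fold (1.02 to 1.46). CDKN1A was 0.678-fold (0.649 to 0.707), FAS 0.634-fold (0.539 to 0.746) and GADD45A 0.768-fold (0.704 to 0.838). The whole interval lay beyond 1.2-fold for TP53INP1 alone among the higher genes, where 10% of all tested genes did so, and for CDKN1A and FAS among the lower, against 9.03%. BTG2 was not called, at 0.920-fold (0.789 to 1.07). ZMAT3, called lower in OA against control, was also not called between the secretomes, at 1.17-fold (1.06 to 1.29). At 1.5-fold TP53INP1 was higher and FAS lower in YA than in OA, where 10.3% and 7.67% of all tested genes were, and 0 members passed at 2-fold, where 4.43% and 3.04% did. The comparisons share libraries, so these values are not independent of those against control.

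**Figure D3:**
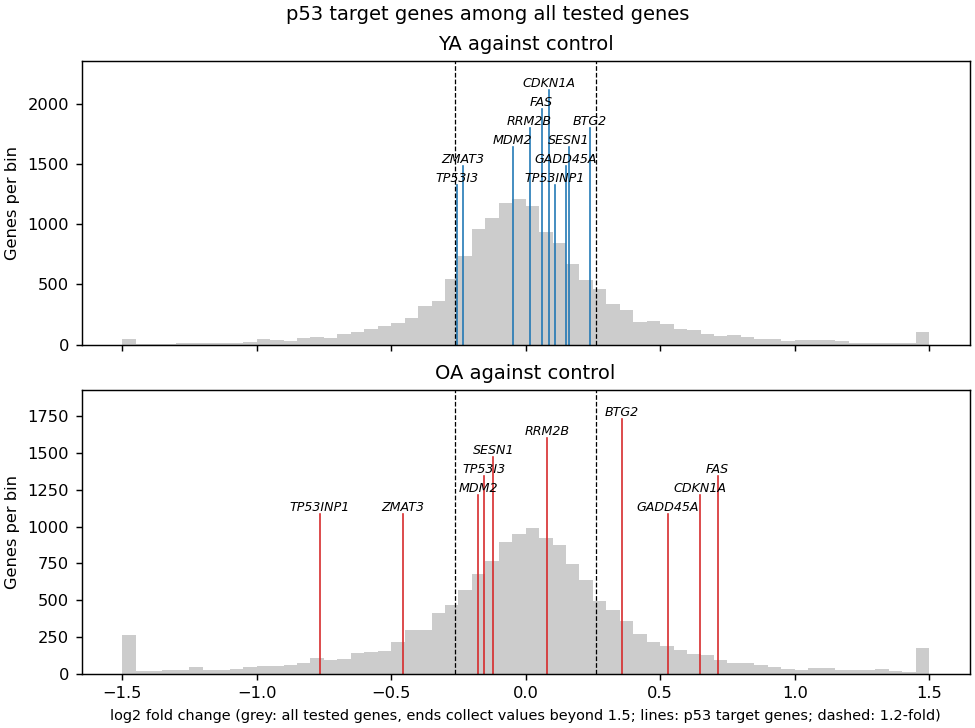
Number of genes per bin of log2 fold change (grey, all 14413 tested genes) for YA against control above and OA against control below, with each p53 target gene as a line, whose height only spaces the names, and 1.2-fold as dashed lines. All 10 lines stand between the dashed lines in YA, while in OA 4 stand beyond the right one and 2 beyond the left one.

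The list of p53 and its regulators held 19 genes, of which 18 were compared. MDM4, the partner of MDM2 that masks the p53 activation domain, had 1141, 1626 and 1122 counts in control, YA and OA and was 1.43-fold of control in YA (1.32 to 1.54) and 1.17-fold in OA (1.08 to 1.27). PPM1D, the phosphatase that switches off damage signalling and is a p53 target too, was 0.855-fold in YA and 0.890-fold in OA. In YA, 4 of the 18 (22.2%) were called higher and 1 (5.56%) lower, beside 17.4% and 16.4% of all tested genes, with EP300, a p53 acetyltransferase, at 1.31-fold (1.23 to 1.39). In OA, 1 (5.56%) was called higher and 3 (16.7%) lower, beside 21.1% and 21.5% of all tested genes. The lower genes were TP73, a p53 family member, at 0.565-fold (0.469 to 0.678), RCHY1, another ubiquitin ligase for p53, at 0.663-fold (0.549 to 0.800), and ATM, the kinase that signals DNA breaks, at 0.683-fold (0.635 to 0.734). The list's median was 0.09 in YA and 0.04 in OA on the log2 scale.

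A list of 51 further p53 targets, of which 47 were compared was described in the same way. In OA, 21 were called higher and 5 lower, that is 44.7% and 10.6% of those compared beside 21.1% and 21.5% of all tested genes, with a median of 0.17. In YA, 12 were called higher and 8 lower, or 25.5% and 17.0% beside 17.4% and 16.4% of all tested genes, with a median of 0.00. The OA genes called higher included 9 of 15 secreted, surface and signalling genes and 5 of 11 genes of apoptosis. TRIM22, an antiviral protein that interferon also induces, had 11, 25 and 54 counts in control, YA and OA, 5.85-fold in OA (3.02 to 12.4). CD82, a tetraspanin, had 94, 108 and 222 counts, 2.81-fold in OA (2.20 to 3.62).

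Other targets were further from control in YA than in OA. GDF15, a stress cytokine, had 80, 382 and 194 counts, or 4.79-fold of control in YA (3.75 to 6.17) and 2.89-fold in OA (2.22 to 3.80). SESN2, a paralog of SESN1 that the stress factor ATF4 also induces, had 389, 974 and 455 counts, 2.51-fold in YA (2.23 to 2.83) and 1.39-fold in OA (1.21 to 1.60). IGFBP3, which binds insulin-like growth factors, was lower, with 3511, 1231 and 2243 counts, 0.352-fold in YA (0.329 to 0.375) and 0.761-fold in OA (0.721 to 0.803). By Euclidean distance over the log2 fold changes in YA and OA, 2 values from 3 libraries, the further targets nearest to CDKN1A were IER5 and PMAIP1 (0.077 and 0.11 away), and those nearest to BTG2 were BBC3 and POLH (0.053 and 0.066 away).

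Paralogs did not always share their relative's direction. GADD45B stood with GADD45A in OA, at 2.21-fold (1.89 to 2.58), and BTG3 with BTG2, at 1.60-fold (1.36 to 1.90). CDKN1B, which encodes the related inhibitor p27, was at 0.739-fold in YA (0.670 to 0.815) and 0.820-fold in OA (0.741 to 0.906), on the other side of control from CDKN1A. SESN3 was 0.558-fold of control in OA (0.442 to 0.702), where SESN1 was within 1.2-fold and SESN2 called higher. Of 11 paralogs compared, 2 were called higher and 2 lower in YA (18.2% each, beside 17.4% and 16.4% of all tested genes), with a median of 0.01. The higher genes were SESN2, also counted among the further targets, and MDM4, also counted among the regulators. In OA 4 were called higher and 4 lower (36.4% each, beside 21.1% and 21.5%), with a median of 0.15.

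**Figure D4:**
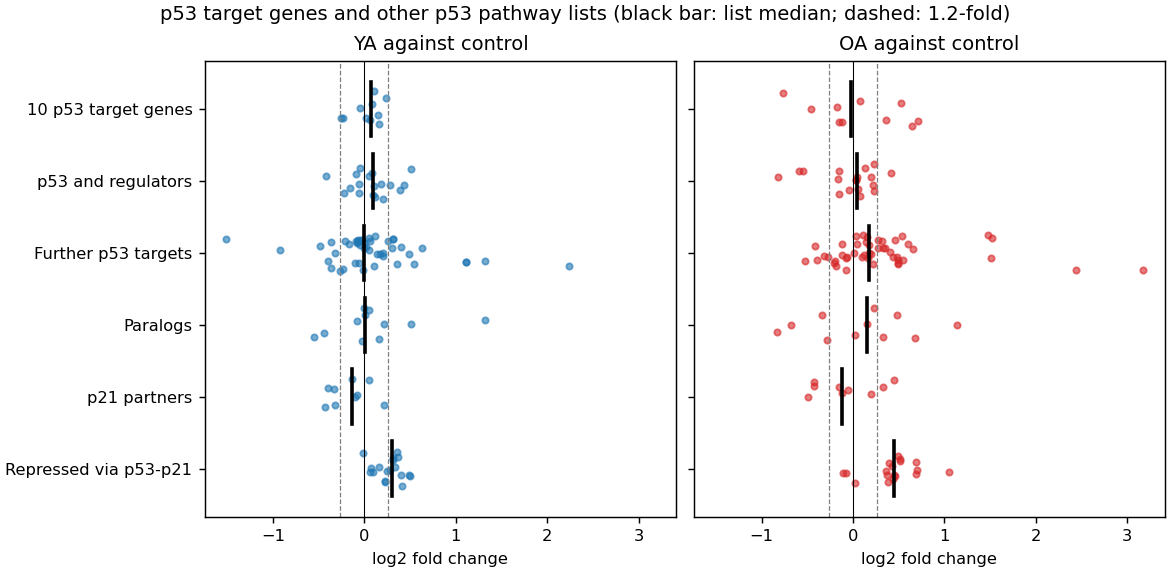
log2 fold change (x axis) of each compared gene in the list of 10 p53 target genes and in the 5 other p53 pathway lists, for YA (left) and OA (right) against control, with list medians as black bars and 1.2-fold as dashed lines. In OA the 10 targets lie on both sides of 0, and the cell cycle genes repressed through p53 and p21 have a median of 0.44. SESN2 and MDM4 are shown both among the paralogs and in another list, and the row of p21 partners also holds PCNA and RB1.

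Downstream of p21, genes of the cell cycle were measured beside CDKN1A. Of 18 mitotic and replication genes that p53 is known to repress through p21, 10 (55.6%) were called higher and 0 lower in YA, beside 17.4% and 16.4% of all tested genes, with a median of 0.30. In OA 15 (83.3%) were called higher and 0 lower, beside 21.1% and 21.5%, with a median of 0.44. CDC20, an activator of the anaphase-promoting complex, was 2.07-fold of control in OA (1.98 to 2.16) and 1.40-fold in YA (1.34 to 1.47). CDKN1A was thus called higher in OA together with 15 of these genes, while CDK1 (0.925-fold, 0.865 to 0.988), MYBL2 (0.946-fold, 0.900 to 0.995) and TOP2A (1.02-fold, 0.990 to 1.05) were not called. A list of cyclins and kinases bound by p21, with PCNA and RB1 added, held 9 compared genes. Of these, 0 were called higher and 4 (44.4%) lower in YA, beside 17.4% and 16.4% of all tested genes, with a median of -0.13. In OA 2 (22.2%) were called higher and 3 (33.3%) lower, beside 21.1% and 21.5%, with a median of -0.12. CCND1, the cyclin D1 gene, was 0.741-fold of control in YA (0.723 to 0.760) and 1.14-fold in OA (1.12 to 1.17). RB1, the retinoblastoma gene, was 0.709-fold in OA (0.668 to 0.753), as CDK6, a kinase that phosphorylates its product, was 0.744-fold (0.722 to 0.766).

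Total counts ran from 18089008 in OA to 21448195 in control, and size factors from 0.891 to 1.06. Of 8 melanoma markers, SOX10 had 0 counts in every library, and the summed normalised counts were 46614 in control, 46688 in OA and 54018 in YA. CSPG4 carried the YA sum, with 18319 normalised counts in control and 27410 in YA, while MITF (0.628-fold) and S100B (0.703-fold) were called lower there and the median of the 4 compared markers was -0.28. The adipocyte markers ADIPOQ and LEP had at most 1 count in any library. The summed level of the 8 adipocyte markers was 650.2, 1179.5 and 484 in control, YA and OA, and that of the 8 fibroblast markers 639.8, 886 and 601. The fall of these sums from control to OA came mainly from LPL, at 332.6 normalised counts in control and 33.7 in OA, and from PDGFRB, at 485.3 and 374.9. PLIN4 made up most of the adipocyte sum in OA, at 360.3. Of the 4 adipocyte markers that passed the filter on low counts, 4 were called higher in YA, and 3 higher and 1 lower in OA (medians 0.88 and 0.59). Of the 4 such fibroblast markers, 3 were called higher in YA, and 2 higher and 1 lower in OA (medians 0.62 and 0.24). Of all tested genes, 17.4% were called higher and 16.4% lower in YA, and 21.1% and 21.5% in OA. Among these adipocyte and fibroblast markers the largest increases were those of DCN and CIDEC. DCN had 13, 138 and 24 counts in control, YA and OA, and CIDEC 6, 31 and 36. The part of these markers in the values of the 10 p53 targets was not tested. The mitochondrial share of reads was 1.51%, 2.47% and 1.59%. The use of strand in counting is not given in the sources used here. Exons of other genes overlap 8.93% of the merged exon length of FAS (ACTA2, opposite strand), 7.09% of SESN1, 6.91% of MDM2, 4.79% of CDKN1A and 3.46% of TP53I3 on the opposite strand, and 3.30% of MDM2 on the same strand, while the other members have none.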

How the data were processed

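Poly(A) libraries of 3 A375 cultures were sequenced on an Illumina NovaSeq, and the authors deposited raw counts per gene. Per the labels, STAR 2.5.1b, featureCounts, R 3.6.1 and hg38 were used; the annotation release is not given in the sources used here. Counts were divided by DESeq2 1.42.0 size factors (R 4.3.3), and log2((a + 1)/(b + 1)) was computed for genes whose normalised counts averaged 20 or more (14413). Counting intervals are 95% Clopper-Pearson intervals of the ratio of reads between 2 libraries. With 1 library per group no test has residual degrees of freedom. Lists are described by counts and medians. Positions and exon lengths came from GENCODE 29, which held 57433 of 58037 identifiers. The procedure was run on simulated Poisson counts with some genes changed by known folds. These hold counting error only, so the run does not cover variation between cultures. Python 3.11.15, pandas 2.3.3, numpy 2.4.6, scipy 1.17.1 and matplotlib 3.10.9 were used, and edgeR 4.0.16 gave TMM factors.

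The members and lists were chosen with earlier results of these data known. Named genes were the 10 members, MDM4 and PPM1D, and up to 3 genes per list and comparison with the largest change among those with intervals wholly beyond 1.2-fold, of which some are given here, with the genes nearest to CDKN1A and BTG2. The motif and its limit of mismatches were chosen after the fold changes had been seen. Some genes that the rule names are not reported here, though the lists' counts and medians include them. COP1 was matched by its older symbol.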

Additional observations from a re-analysis of the deposited data

Results flagged for a closer look

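Among the named genes reported here, 4 lay on opposite sides of control in the 2 secretomes with both counting intervals clear of no change. The values are log2 fold changes in YA and then OA. CREBBP, a p53 acetyltransferase, was at 0.18 and -0.15, CCND1 at -0.43 and 0.19, CDK6 at 0.051 and -0.43, and MYBL2, a cell cycle transcription factor, at 0.41 and -0.080. Each rests on 1 library per group and a shared control, and the difference was not tested. None of the 10 p53 target genes met this condition, since TP53INP1 and SESN1, with opposite signs, had YA intervals that held no change.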

How the results depend on the processing

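The 6 counts of p53 target genes called higher or lower and the 3 medians kept their value or stayed within 1.5 times or the counting error under edgeR TMM scaling, total-count scaling, no filter on low counts, a minimum mean of 100 and a pseudocount of 5. Raising the cutoff can only remove calls. At 1.5-fold, 2 members were higher and 1 lower in OA against control, and 1 was higher and 1 lower in YA against OA. At 2-fold there were 0 in every comparison and direction. With the interval wholly beyond 1.2-fold, 1 was higher in YA against OA. Correcting for the length and GC content of transcripts was added after the data had been seen. It put 1 member higher (BTG2, 0.28) and 1 lower (TP53I3, -0.32) in YA against control. The share of all tested genes called under this correction was not computed, while without it 17.4% were higher and 16.4% lower. CDKN1A in OA went from 0.65 to 0.55 and was still called higher. The cause of these shifts was not tested. No called value changed sign under these settings. No paired analysis was possible because each group has 1 library. In YA the counting intervals of BTG2, FAS, SESN1, TP53INP1 and GADD45A reached past 1.2-fold upwards and those of TP53I3 and ZMAT3 downwards, so counting error alone does not set these genes within 1.2-fold, and culture-to-culture variation was not measured.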
